A study of Mus musculus with 69 samples.

Results

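Zeb1 lies among housekeeping and signalling genes near the start of mouse chromosome 18, and 10 of these neighbours were followed here in every library, out of 55964 gene IDs in all. They were listed by symbol as genes near Zeb1, with earlier results of these data known, and all 10 were found. Against the annotated Zeb1 gene (ENSMUSG00000024238, chr18:5591860-5775467, plus strand, GRCm38, GENCODE M21), 6 lie upstream and 4 downstream. Going from the start of the chromosome, the upstream genes are Crem (ENSMUSG00000063889, chr18:3266048-3337748, minus strand), Cul2 (ENSMUSG00000024231, chr18:3382988-3436377, plus strand), Map3k8 (ENSMUSG00000024235, chr18:4331327-4353015, minus strand), Mtpap (ENSMUSG00000024234, chr18:4375592-4397330, plus strand), Svil (ENSMUSG00000024236, chr18:4920540-5119299, plus strand) and Zfp438 (ENSMUSG00000050945, chr18:5210029-5334807, minus strand). The downstream genes are Arhgap12 (ENSMUSG00000041225, chr18:6024427-6136098, minus strand), Kif5b (ENSMUSG00000006740, chr18:6201002-6242174, minus strand), Epc1 (ENSMUSG00000024240, chr18:6435951-6516108, minus strand) and Wac (ENSMUSG00000024283, chr18:7868832-7929028, plus strand). Zfp438 and Arhgap12 are the closest of the 10, with gaps of 0.257 and 0.249 Mb to Zeb1, and Crem is the farthest, at 2.254 Mb.

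When an allele is made in embryonic stem cells, DNA linked to it travels with it through later crosses, so genes beside a knock-in can carry sequence variants that the control mice lack. A change caused by such linked variation would tend to follow the allele into every tissue where the neighbour is expressed. A change downstream of the altered gene may be seen in some tissues only, including tissues where that gene itself does not change, for instance through hormones. The neighbours themselves have unrelated roles. Svil (supervillin) ties the actin cortex to the plasma membrane, Arhgap12 is a GTPase-activating protein, and Kif5b is the heavy chain of the ubiquitous conventional kinesin motor. Map3k8 (Tpl2) is a kinase upstream of ERK in inflammatory signalling, Cul2 is the scaffold of the ubiquitin ligase that carries VHL, and Mtpap adds poly(A) tails to mitochondrial RNAs. Crem is a cAMP-responsive transcription factor with repressor isoforms that are induced by cAMP, Epc1 is a subunit of the NuA4 histone acetyltransferase complex, Wac is an adaptor protein linked to histone H2B ubiquitination and autophagy, and Zfp438 is a zinc finger protein.

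The study asked what happens when Zeb1, which encodes a transcriptional repressor, escapes the miR-200 family. All mice were female and staged for proestrus. WT mice carried the unaltered Zeb1 gene, 200H mice carried 1 knock-in allele with point mutations in the predicted miR-200a and miR-200b sites of the 3′ UTR, and 200M mice carried 2 such alleles. Pituitary, hypothalamus and ovary were taken from young virgin mice of 8 to 12 weeks and from older mice of 28 to 36 weeks that had completed a breeding trial, giving 69 libraries in 18 groups of 3 or 4. The knock-in is constitutive, so every cell type of all 3 tissues carries it. It had been backcrossed to C57BL/6J for many generations. Both cohorts drew on lines from 2 independently targeted stem cell clones, and the labels do not say which clone a library came from. Whether DNA beside the allele differs between libraries of the same genotype is therefore not known. Total counts per library ran from 3321845 in young hypothalamus to 14655095 in older ovary. The summed pituitary hormone genes (Prl, Gh, Pomc, Cga, Lhb, Tshb) reached at least 67310 CPM (counts scaled to a common library size) in every pituitary library and at most 164 CPM elsewhere. The young libraries were rRNA-depleted and stranded, and the older ones poly(A)-selected and unstranded, so cohort cannot be told apart from age, breeding history and library chemistry, and the cohorts were tested separately.

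The altered sites pair with the 2 seeds of the miR-200 family, whose mature sequences (RefSeq, GRCm38.p6) are shown because the same seeds were searched for in the 3′ UTRs of the neighbours. Capitals mark the seed, bases 2 to 8 from the 5′ end.
miR-200b-3p: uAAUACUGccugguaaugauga
miR-200c-3p: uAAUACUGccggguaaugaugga
miR-200a-3p: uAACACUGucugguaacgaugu
miR-141-3p: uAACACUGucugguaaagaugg
The first pair shares the seed AAUACUG, whose 7-base match in a 3′ UTR reads CAGTATT, and the second pair shares AACACUG, whose match reads CAGTGTT. On the sense strand of the annotated 3′ UTR, Zeb1 held 5 matches of the first kind and 4 of the second. Among the neighbours, Mtpap held 1 match to CAGTATT, Arhgap12 and Kif5b each held 1 match to CAGTGTT, and the other 7 held none. No neighbour held an 8-base match (CAGTATTA or CAGTGTTA), of which Zeb1 held 3. At least 1 of these 7-base matches occurred in 26.9% of 21173 genes with an annotated 3′ UTR, and in 49.5% of those whose UTR was 2000 to 4000 nt long, the class of Mtpap (2246 nt), Arhgap12 (2129 nt) and Kif5b (2724 nt). A match is a string of letters and was not tested as a site.

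In WT mice the neighbours spanned a wide range of expression, and their levels differed between tissues in different ways. Tissues are compared by CPM without a common scaling. The 6 summed hormone genes alone took 162891 to 186418 CPM in young and 289682 to 321846 CPM in older WT pituitary. Their share lowers the CPM of every other pituitary gene. In older mice ovary was also counted with a different program and annotation from pituitary and hypothalamus. Compared between genes per kilobase of exon in young WT pituitary, Wac was the highest, at 66.3 ± 3.50 CPM per kb (SD, n = 3), followed by Kif5b at 18.9 ± 1.37 and Epc1 at 18.3 ± 0.269, which overlapped. Map3k8 was the lowest, at 0.840 ± 0.133 CPM per kb, and had only 2 to 14 counts per library in young hypothalamus. Zeb1 itself stood at 9.41 ± 0.163 CPM per kb, overlapping Mtpap (9.46 ± 0.591) and above Arhgap12 (5.98 ± 0.225).

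Svil was highest in ovary. Its WT level was 204 ± 6.70 CPM (SD, n = 4) in young ovary, against 39.9 ± 0.176 CPM (n = 3) in pituitary and 24.8 ± 4.35 CPM (n = 4) in hypothalamus, and no 2 tissues overlapped. Older WT mice had the same order, with 127, 30.9 and 17.8 CPM.

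Crem was highest in pituitary. It averaged 81.1 ± 23.5 CPM in young WT pituitary (n = 3) and 69.7 ± 19.3 CPM in older WT pituitary (n = 4), 3.95- and 5.34-fold above hypothalamus, the lowest tissue. It was also the neighbour with the widest spread between WT pituitaries, with 66.2, 68.8 and 108 CPM in the young libraries and 47.9, 62.1, 75.6 and 93.0 CPM in the older ones. Cul2 was highest in hypothalamus in both cohorts (68.2 ± 2.55 and 89.8 ± 11.3 CPM, n = 4 each), and its pituitary and ovary libraries overlapped.

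Arhgap12 was lowest in pituitary, at 48.0 ± 1.80 CPM (n = 3) in young and 42.0 ± 3.86 CPM (n = 4) in older WT mice, while its hypothalamus and ovary libraries overlapped at 64.5 to 107 CPM. Kif5b also had its lowest CPM in pituitary, although young pituitary and ovary overlapped and their order is not resolved without a common scaling. Zfp438, Epc1, Mtpap and Wac differed between tissues by 1.62-fold or less. The level of Wac depended more on the cohort than on the tissue. Young WT pituitary held 393 ± 20.7 CPM of Wac and older WT pituitary 76.1 ± 8.13 CPM, a ratio of 5.16 between libraries of different chemistry, strand handling and annotation.

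**Figure D1:**
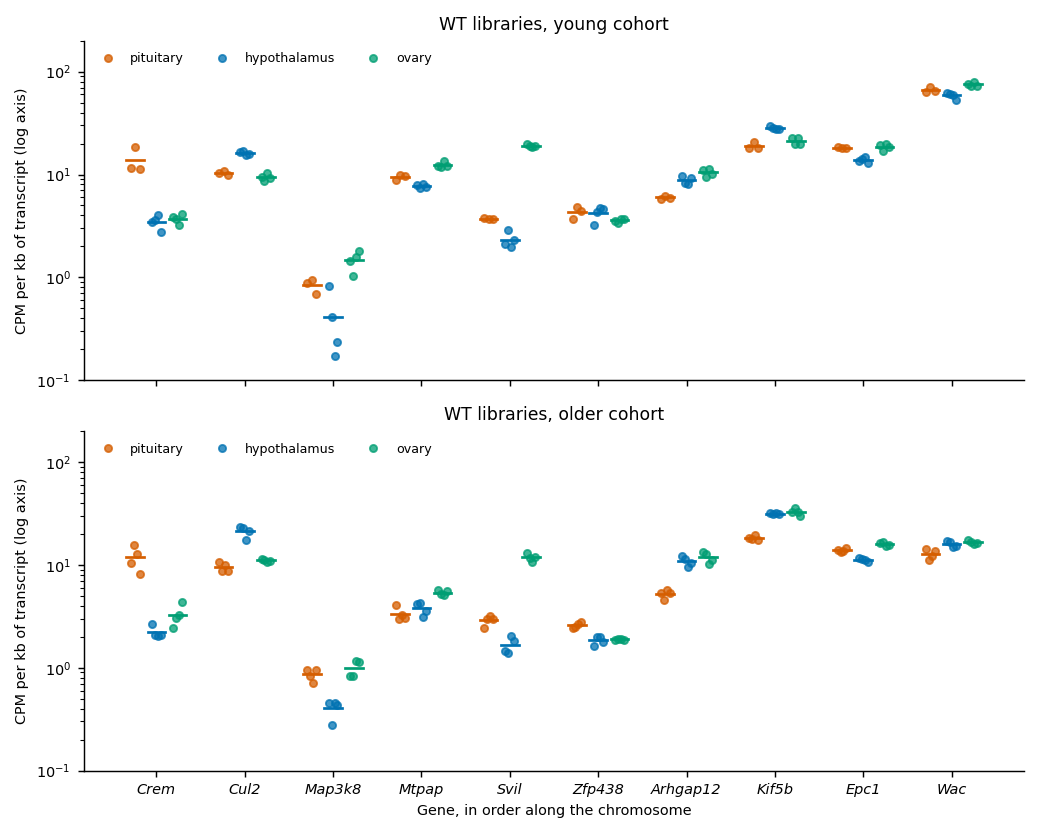
Level of each neighbour in every WT library, as CPM per kb of exon on a log axis, with the genes in chromosomal order; points are libraries, short bars are means and colours are tissues. Svil stands highest in ovary, Crem in pituitary and Cul2 in hypothalamus in both cohorts, and Map3k8 is the lowest gene throughout.

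Zeb1 was measured first, because it carries the knock-in. It read 95.6, 95.6 and 98.5 CPM in the 3 young WT pituitaries, 127 to 135 CPM in the 4 young 200H pituitaries and 132 to 141 CPM in the 4 young 200M pituitaries. In older pituitary the WT libraries held 55.3 to 62.7 CPM, the 200H libraries 70.1 to 76.1 CPM and the 200M libraries 80.6 to 93.0 CPM. Every 200H and 200M pituitary therefore lay above every WT pituitary of its cohort. The log2 differences from WT were 0.52 (SE 0.06) for 200M and 0.44 (SE 0.07) for 200H in young mice, and 0.55 (SE 0.09) and 0.33 (SE 0.08) in older mice, with adjusted p from 2.4e-05 to 0.0139 (edgeR quasi-likelihood test, Benjamini-Hochberg over all genes tested). In hypothalamus and ovary Zeb1 was not called in any comparison with WT, and its log2 differences lay between -0.26 and -0.05. In hypothalamus, though, every 200M library lay below every WT library of its cohort. The log2 differences there were -0.17 (SE 0.07) in young and -0.26 (SE 0.09) in older mice, and they enter the interaction terms given next. The 200M difference in Zeb1 was larger in pituitary than in hypothalamus or ovary in both cohorts, by 0.59 to 0.81 on the log2 scale (interaction term, adjusted p from 9.0e-06 to 0.0301, edgeR). With these mRNA pools a shift in cell composition and a shift in RNA per cell cannot be told apart, here or below.

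Few changes were called among the neighbours. Across the 12 comparisons with WT, 118 tests of a neighbour were possible and 1 passed an adjusted p of 0.05 by edgeR. That was Arhgap12 in older 200M pituitary. Map3k8 was too low to be tested in young hypothalamus. At an unadjusted p under 0.05 there were 13 of the 118, and the counts over all genes at that cut are given below. DESeq2 also called 1 neighbour over all 18 genotype comparisons.

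In young pituitary none of the 10 neighbours was called in 200M against WT, where 21.5% of all genes were, and none in 200H, where 12.3% were. Their median log2 differences were 0.02 and 0.05, against 0.00 and 0.01 over all genes. In each comparison 1 neighbour had an unadjusted p under 0.05 (edgeR), beside 5899 of 18199 genes for 200M and 4610 of 18051 for 200H. In older pituitary 1 of 10 was called in 200M, against 21.4% of all genes, and 0 of 10 in 200H, against 12.2%. At an unadjusted p under 0.05 (edgeR) there were 3 and 2 neighbours, beside 5089 of 14711 and 3914 of 14922 genes. The medians were 0.07 and 0.08, against -0.01 over all genes in both. The 200M and 200H comparisons share their WT libraries. Between the knock-in genotypes no neighbour was called in either cohort, where 0.0383% of genes were called in young and 0.121% in older pituitary.

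In hypothalamus and ovary 0 neighbours were called by edgeR, and few other genes were. The share of all genes called in young hypothalamus was 0.0200% for 200M and 0.0202% for 200H against WT, and 0% for 200M against 200H. In older hypothalamus it was 0.00622%, 0% and 0%. Young ovary gave 2.58%, 0.00510% and 0%, and older ovary 2.71%, 0% and 1.61%, in the same order. Between 0 and 2 neighbours in each of these 12 comparisons had an unadjusted p under 0.05 (edgeR), and DESeq2 called 0 neighbours. Over all genes, 445 to 3144 had an unadjusted p under 0.05, out of 14812 to 19621 tested. In older 200M hypothalamus against WT DESeq2 called 619 genes in all, where edgeR called 1. Where 0% of genes were called, edgeR gave 445 to 3144 genes with an unadjusted p under 0.05 and DESeq2 called 0 to 637.

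**Figure D2:**
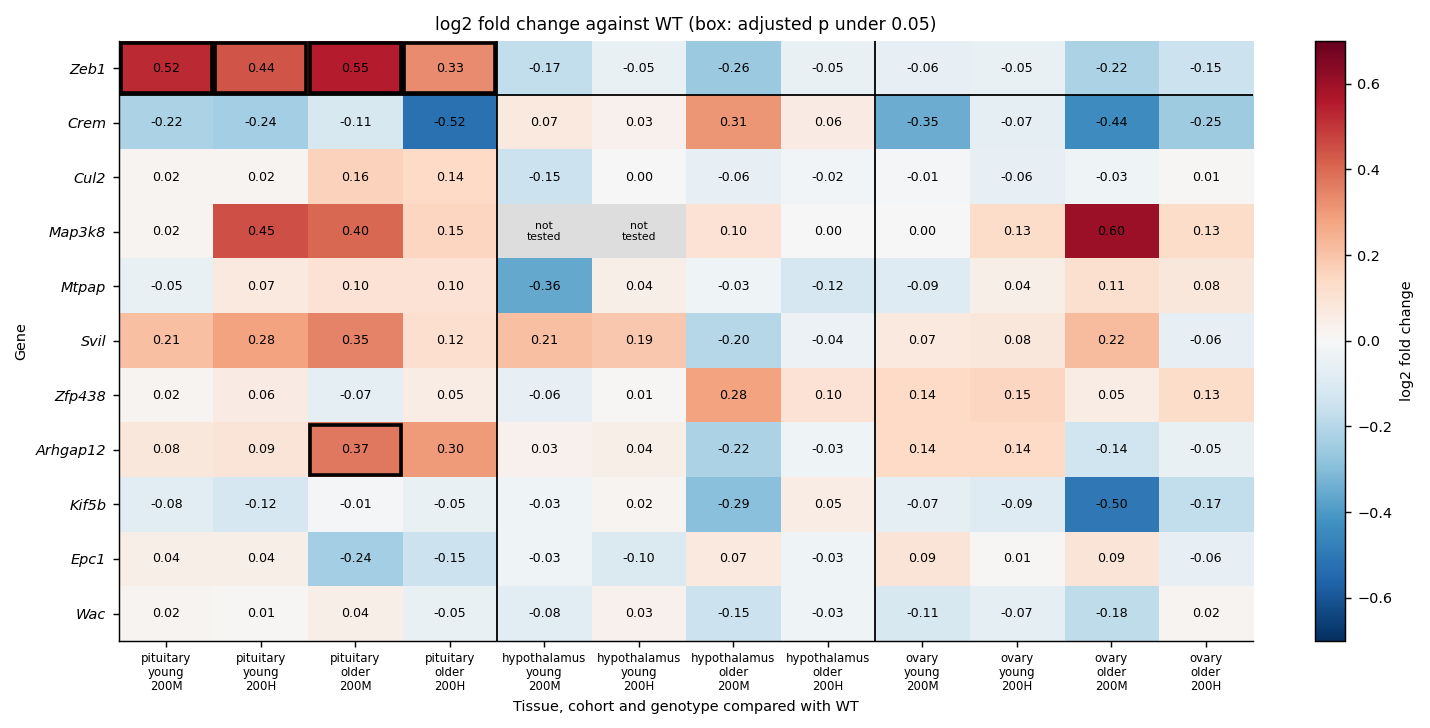
log2 fold change against WT of Zeb1 (top row) and the 10 neighbours, in chromosomal order, for each tissue, cohort and genotype; a black box marks an adjusted p under 0.05 (edgeR). The 4 pituitary columns are boxed for Zeb1, and the only boxed neighbour is Arhgap12 in older 200M pituitary.

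The precision of these libraries limits how large an unseen change could be. Of the 118 tests against WT, 88 had a 95% confidence interval that lay entirely between -0.5 and 0.5 on the log2 scale, a range of 1.41-fold either way. Wac was among the most tightly measured, with 200M intervals in pituitary of -0.10 to 0.15 (young) and -0.17 to 0.26 (older). Epc1 had -0.09 to 0.18 and Cul2 -0.16 to 0.21 in young pituitary. Map3k8, with 13 to 62 counts per pituitary library, was the least constrained, at -0.49 to 0.53 in young and -0.06 to 0.87 in older 200M pituitary.

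**Figure D3:**
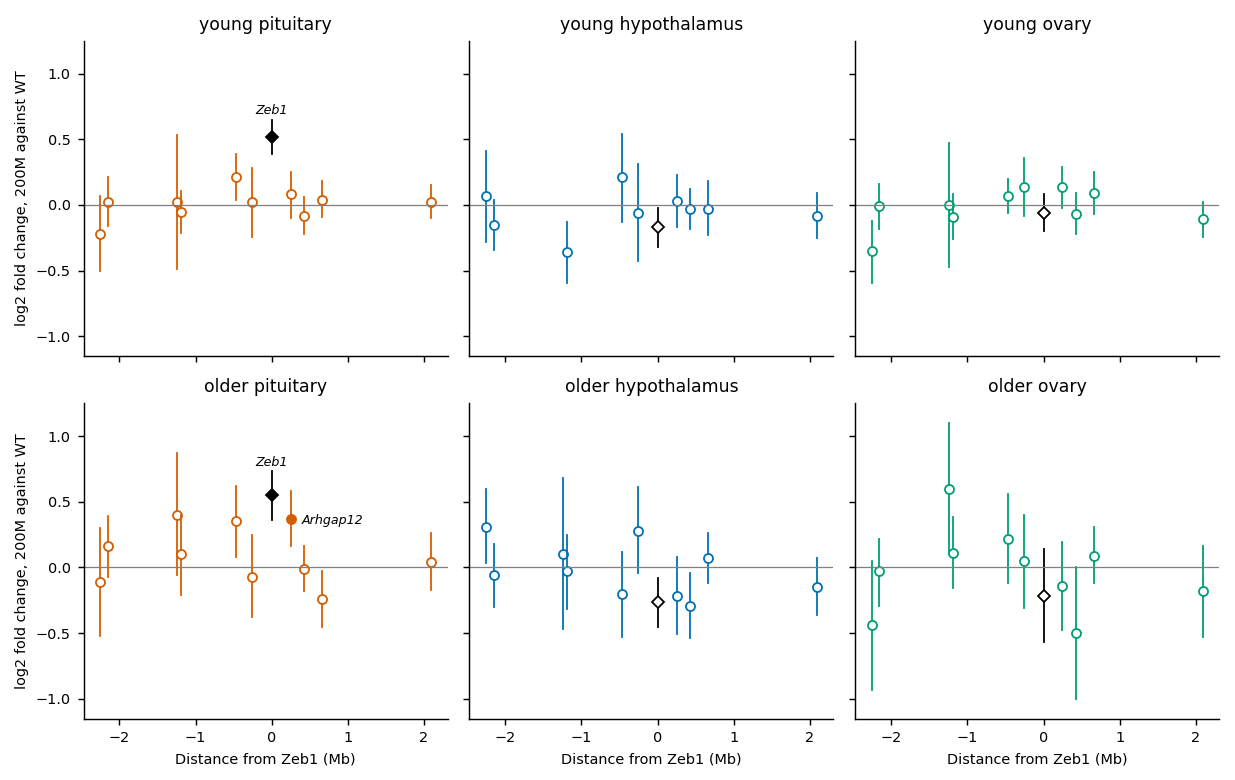
log2 fold change of 200M against WT with its 95% confidence interval, plotted by distance from Zeb1 in Mb (negative, upstream); circles are the neighbours, the diamond at 0 is Zeb1, and filled symbols passed an adjusted p of 0.05. Zeb1 is filled in both pituitary panels, and Arhgap12 in older pituitary is the only filled circle.

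Arhgap12 was higher in older 200M pituitary than in WT. The 4 WT libraries read 42.9, 36.6, 45.7 and 42.8 CPM (42.0 ± 3.86) and the 3 200M libraries 51.6, 54.1 and 56.5 CPM (54.1 ± 2.48). The 4 200H libraries read 47.7, 59.8, 47.9 and 49.7 CPM (51.3 ± 5.75). All 7 knock-in libraries lay above all WT libraries, while 200M and 200H overlapped. The log2 difference was 0.37 (SE 0.10, 95% interval 0.16 to 0.58, adjusted p = 0.0179, edgeR) for 200M against WT, a ratio of 1.29. For 200H it was 0.30 (SE 0.10, adjusted p = 0.0800), which missed the threshold. The 200M call was lost when 200M replicate 2 (adjusted p = 0.0650) or replicate 3 (adjusted p = 0.0818) was left out.

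No other comparison of this gene with WT passed the test. Young pituitary gave 46.8, 50.0 and 47.1 CPM in WT against 46.1, 54.5, 47.8 and 52.0 CPM in 200M, which overlap, with a log2 difference of 0.08 (SE 0.08, interval -0.10 to 0.25). Young ovary gave 0.14 for 200M (interval -0.02 to 0.29), with 3 of 4 libraries above all WT libraries, and 0.14 for 200H (interval -0.04 to 0.31). Older hypothalamus and older ovary gave log2 differences below 0, of -0.22 (interval -0.51 to 0.08) and -0.14 (interval -0.48 to 0.19). The 200M effect on Arhgap12 in older mice was larger in pituitary than in hypothalamus by 0.59 on the log2 scale (SE 0.18, adjusted p = 0.0279, interaction term, edgeR). The interval of the older pituitary effect (0.16 to 0.58) and that of the young one (-0.10 to 0.25) overlapped, and the difference between cohorts was not tested.

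Against ovary the 200M effect on Arhgap12 differed by 0.53 (SE 0.19, adjusted p = 0.111). The hypothalamus comparison rested partly on older 200M hypothalamus replicate 2, which held 59.2 CPM of Arhgap12 against 90.3 and 77.0 CPM in the other 200M libraries. Without it the difference was 0.44 (adjusted p = 0.0683). It was also past 0.05 without older pituitary 200M replicate 2 or 3, pituitary WT replicate 2, hypothalamus 200M replicate 3 or hypothalamus WT replicate 1, with differences of 0.53 to 0.60 and adjusted p of 0.0506 to 0.0705. Genes were also compared by exon length, joined over all annotated isoforms of a gene. Relative to genes of short exon length, long ones were lower in all 3 older 200M hypothalamus libraries (-0.45, -0.20 and -0.08 on the log2 scale around the tissue mean) than in all 4 WT libraries (-0.03 to 0.18). This was opposite to the shift in pituitary given below. The joined exon length is 8016 nt for Arhgap12 and 10266 nt for Zeb1, and the interaction tests were not repeated with the length trend removed.

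Across the 4 tests of this kind, neighbours whose 200M effect differed between tissues numbered 0 of 10 for young pituitary against hypothalamus, where 10.5% of all genes were called, and 0 of 10 against ovary, where 10.1% were. In older mice they numbered 1 of 10 against hypothalamus, beside 17.5% of all genes, and 0 of 10 against ovary, beside 5.77%. At an unadjusted p under 0.05 the numbers were 1, 0, 3 and 2. Over all genes they were 4060 of 17789, 5052 of 22130, 5421 of 17180 and 4111 of 18736, in the same order. DESeq2 called 2 neighbours in all, both of them in the older hypothalamus test, where it called 3219 genes.

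Other features of the older pituitary libraries also differed by genotype. The summed pituitary hormone genes were lower in 200M (161778 to 210765 CPM) than in WT (289682 to 321846 CPM). Sums of 3 neuronal genes (Rbfox3, Snap25, Syt1; 747 to 815 against 523 to 575 CPM), 4 posterior pituitary genes (Avp, Oxt, Rax, Col25a1; 86.2 to 116 against 60.5 to 68.5 CPM) and 6 leukocyte genes (Ptprc, Csf1r, Cd68, Adgre1, Aif1, Lyz2; 83.6 to 119 against 59.6 to 78.2 CPM) were higher, and none of these markers was below 1 CPM throughout. The 3 endothelial genes overlapped (150 to 183 against 133 to 185 CPM). Genes with over 6 kb of joined exon length include Arhgap12, Svil, Kif5b and Mtpap. Relative to genes under 2 kb, such long genes were also higher in the 200M libraries (0.08 to 0.12 on the log2 scale around the mean of older pituitary) than in WT (-0.25 to 0.01). With that length trend removed Arhgap12 differed by 0.31 (adjusted p = 0.0335). In young pituitary the hormone sum was likewise lower in 200M (67310 to 87139 CPM) than in WT (162891 to 186418 CPM) and the neuronal sum higher (918 to 993 against 770 to 835 CPM). The posterior pituitary (116 to 141 against 90.9 to 112 CPM), leukocyte (41.9 to 47.7 against 29.7 to 39.0 CPM) and endothelial sums (152 to 164 against 135 to 151 CPM) were also higher. There 1 leukocyte gene stayed below 1 CPM in both groups, and 1 posterior pituitary gene in 200M. The Arhgap12 difference in young pituitary was 0.08. The part of the marker sums in the result was not tested.

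**Figure D4:**
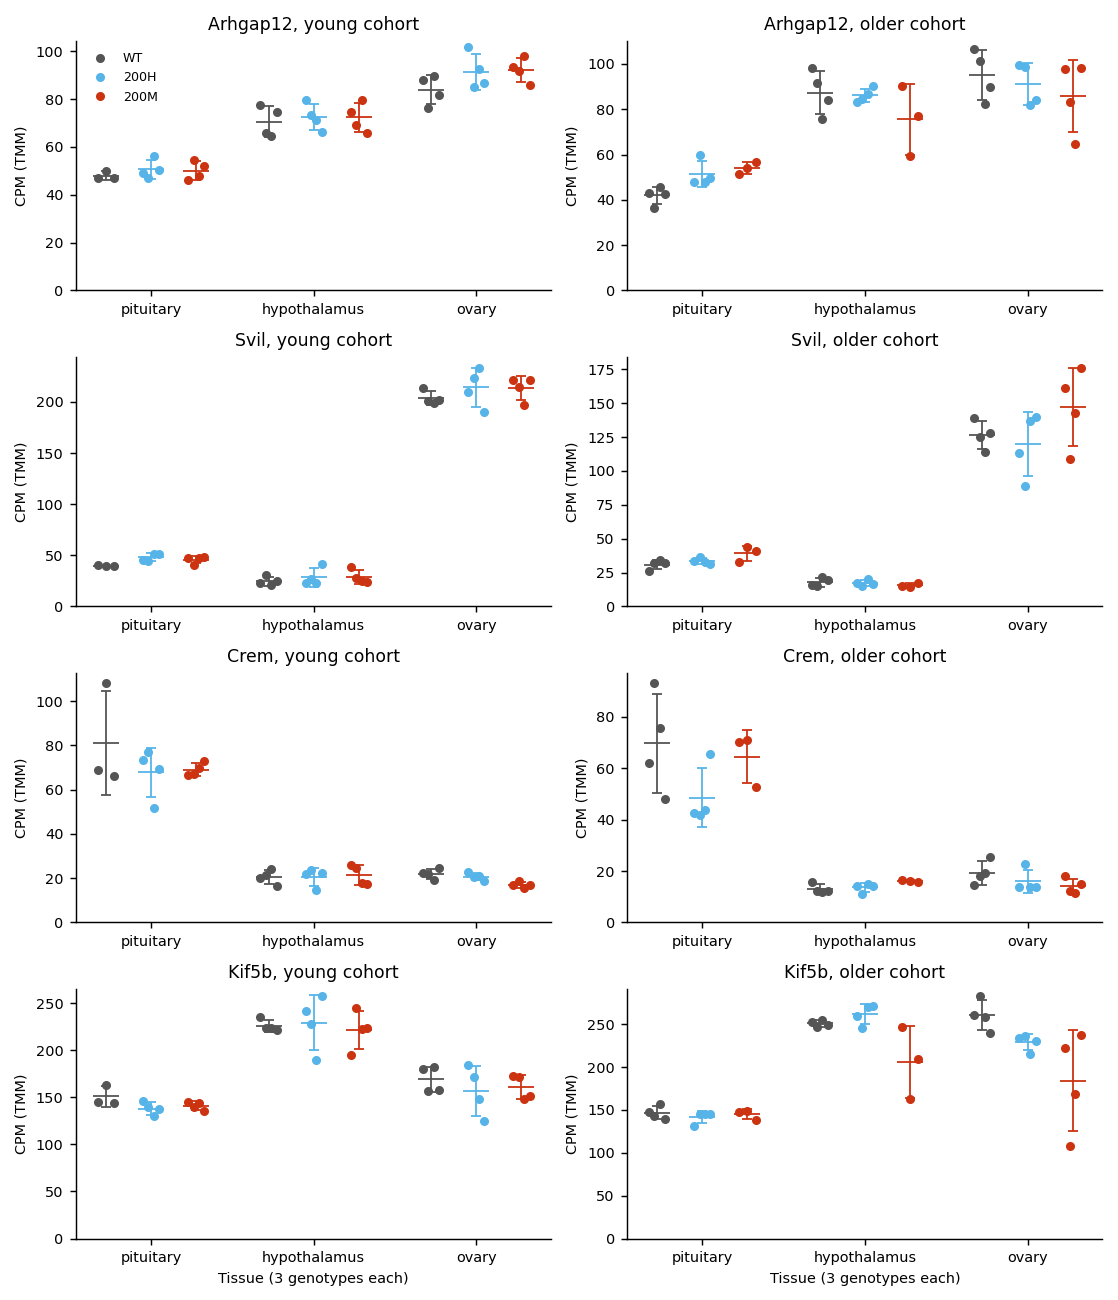
CPM of Arhgap12, Svil, Crem and Kif5b in every library by tissue, cohort and genotype; points are libraries, horizontal marks are means and error bars are SD. In older pituitary all knock-in libraries lie above WT for Arhgap12, 3 of 4 older 200H pituitaries are low for Crem, and 1 older 200M hypothalamus and 1 older 200M ovary are low for Kif5b.

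After Arhgap12, Svil had the smallest adjusted p. In young pituitary WT read 40.1, 39.7 and 39.8 CPM, 200M read 47.0, 40.6, 47.2 and 48.5 CPM, and 200H read 45.0, 44.3, 51.0 and 51.6 CPM. No knock-in library overlapped WT, and 200M replicate 2 lay just above it. The log2 differences were 0.21 (SE 0.08, adjusted p = 0.0841) for 200M and 0.28 (SE 0.09, adjusted p = 0.0601) for 200H. Without 200M replicate 2 the 200M difference was called (0.27, adjusted p = 0.0376). With replicate number as a block the differences were 0.14 for 200M (adjusted p = 0.500, edgeR) and 0.17 for 200H (adjusted p = 0.547). In older pituitary WT held 25.9, 31.9, 34.0 and 32.0 CPM and 200M held 32.7, 43.6 and 41.2 CPM, which overlap, with a log2 difference of 0.35 (SE 0.12, adjusted p = 0.0630). Older 200H gave 0.12 (interval -0.10 to 0.34). With the length trend removed the 200M values were 0.15 in young and 0.25 in older pituitary (adjusted p = 0.237 and 0.175). Svil has the longest joined exon length of the neighbours, at 10701 nt.

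In ovary, where Svil is most abundant, the 200M interval was -0.06 to 0.20 in young and -0.12 to 0.56 in older mice. In hypothalamus the 200M log2 differences had opposite signs in the cohorts, 0.21 (interval -0.13 to 0.54) in young and -0.20 (interval -0.53 to 0.12) in older mice.

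Crem was lower in most knock-in groups of pituitary and ovary, without passing the test. In older pituitary WT ranged from 47.9 to 93.0 CPM, while 200H replicates 1 to 3 read 42.6, 41.9 and 43.8 CPM and replicate 4 read 65.6 CPM. The log2 difference was -0.52 (SE 0.19, adjusted p = 0.109). It was called without 200H replicate 4 (-0.71, adjusted p = 0.0396), without WT replicate 4 (-0.67, adjusted p = 0.0233) and with no filter on low counts (adjusted p = 5.6e-05), and was -0.34 (adjusted p = 0.320) without WT replicate 2. The older 200M pituitaries, at 52.6 to 70.8 CPM, gave -0.11 (interval -0.52 to 0.30). Crem was not called between 200M and 200H in the main test, and the order of these genotypes was not resolved.

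In young ovary Crem read 22.6, 21.8, 19.1 and 24.4 CPM in WT and 17.0, 18.8, 15.4 and 17.1 CPM in 200M, with no overlap. The log2 difference was -0.35 (SE 0.11, adjusted p = 0.111). Older ovary gave -0.44 (SE 0.22, adjusted p = 0.345). In older hypothalamus the difference was above 0, at 0.31 (SE 0.13, adjusted p = 0.238), with 15.8 to 16.6 CPM in 200M against 11.9 to 15.8 CPM in WT.

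Kif5b showed no detectable difference in pituitary, with 200M intervals of -0.22 to 0.06 in young and -0.18 to 0.16 in older mice, and varied most in older 200M ovary. There the 200M libraries read 223, 108, 169 and 237 CPM against 261, 282, 258 and 240 CPM in WT. All 200M values lay below all WT values, and replicate 2 lay far below the rest. The log2 difference was -0.50 (SE 0.22, adjusted p = 0.303), and -0.33 (adjusted p = 0.203) without replicate 2. All 4 older 200H ovaries (216 to 237 CPM) also lay below all WT ovaries, with a log2 difference of -0.17 (unadjusted p = 0.0440, adjusted p = 0.748, edgeR).

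Older 200M hypothalamus had 1 low library of the same kind. It read 247, 162 and 209 CPM of Kif5b against 247 to 255 CPM in WT, with a log2 difference of -0.29 (SE 0.12, adjusted p = 0.226), or -0.14 (adjusted p = 0.496) without replicate 2. In both low libraries genes of long exon length were low relative to short ones, by -0.38 in the ovary and -0.45 in the hypothalamus, the lowest value of each tissue in the older cohort. In the same ovary library Wac (66.7 CPM, against 74.4 to 105 CPM in the other 200M ovaries) was low as well. The part of library quality in these values was not tested.

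Map3k8 read 8.40, 6.44, 5.51 and 6.73 CPM in older 200M ovary and 3.70, 3.74, 5.22 and 5.15 CPM in WT, with no overlap, on 42 to 88 counts per library. The log2 difference was 0.60 (SE 0.22, adjusted p = 0.214), the highest of any neighbour, and the young ovaries gave 0.00 (interval -0.47 to 0.47). The summed 6 leukocyte genes were also higher in older 200M ovary (974 to 3829 CPM) than in WT (240 to 538 CPM), without overlap, while in young ovary they overlapped (165 to 205 against 140 to 203 CPM). Their part in the older 200M ovary values of Map3k8 and the other neighbours was not tested. In older pituitary the 3 200M libraries (4.47 to 6.01 CPM) also lay above WT (3.23 to 4.31 CPM), with a log2 difference of 0.40 (SE 0.21, adjusted p = 0.205).

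Mtpap was low in young 200M hypothalamus, without passing the test. The 200M libraries read 38.5, 34.3, 43.9 and 34.4 CPM, below the 45.9 to 52.3 CPM of all 8 WT and 200H libraries. The log2 difference from WT was -0.36 (SE 0.11), with an adjusted p of 0.811. The deeper older hypothalamus libraries gave -0.03 (interval -0.32 to 0.25).

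Epc1 in older pituitary was lower in 200M (45.0, 56.6 and 54.9 CPM) than in WT (59.4 to 65.1 CPM), with a log2 difference of -0.24 (SE 0.10, adjusted p = 0.0931), while young pituitary gave 0.04 (SE 0.06). Cul2, Wac and Zfp438 were never at an unadjusted p under 0.05. Over the 12 comparisons with WT their log2 differences ran from -0.15 to 0.16 for Cul2, from -0.18 to 0.04 for Wac and from -0.07 to 0.28 for Zfp438. Zfp438, the nearest of the 6 upstream neighbours, lay above WT in every older 200M hypothalamus (8.20 to 9.80 against 6.59 to 8.03 CPM, log2 difference 0.28, adjusted p = 0.336) and in every young 200M and 200H ovary (14.9 to 16.8 against 13.7 to 14.9 CPM, log2 differences 0.14 and 0.15). In older ovary all 4 200H libraries (8.02 to 8.80 CPM) and 3 of 4 200M libraries (7.61 to 8.15 CPM) lay above all WT libraries (7.57 to 7.70 CPM), with log2 differences of 0.13 and 0.05, and none of the 4 ovary comparisons passed the test. The 200M and 200H ovary groups share their WT libraries. In pituitary of both cohorts and in young hypothalamus, the 200M and 200H libraries of Zfp438 overlapped WT. How many of all genes separate from WT in this way was not counted, here or above. In the unstranded older libraries reads of a gene and an overlapping gene on the other strand cannot be told apart. In the counting mode used for older pituitary and hypothalamus reads over shared exon bases go to neither gene. For older ovary the study does not state how such reads were handled. Antisense genes share 1147 exon bases with Mtpap (and a transcript of its own strand 224), 142 and 182 with Kif5b, 322 with Epc1 and 260 with Wac, a transcript of the opposite strand shares 472 with Crem, and the other 5 neighbours share none.

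The wider region was counted in the same way. Of other genes within 5 Mb of Zeb1, 5 of 30 tested were called in young 200M pituitary (16.7%, median log2 difference 0.03) and 3 of 19 in older 200M pituitary (15.8%, median 0.03). The shares were 34.5% and 28.3% for genes at 5 to 20 Mb, 16.5% and 18.2% beyond 20 Mb, and 21.6% and 21.5% on other chromosomes. In hypothalamus 0 genes within 5 Mb were called in either cohort. Over all tissues, 16 calls against WT fell on 10 genes within 5 Mb, 13 of them in pituitary and 3 in ovary. The ovary calls were 2 of 35 genes tested in young 200M (5.71%, against 2.58% of all genes) and 1 of 30 in older 200M (3.33%, against 2.71%).

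**Figure D5:**
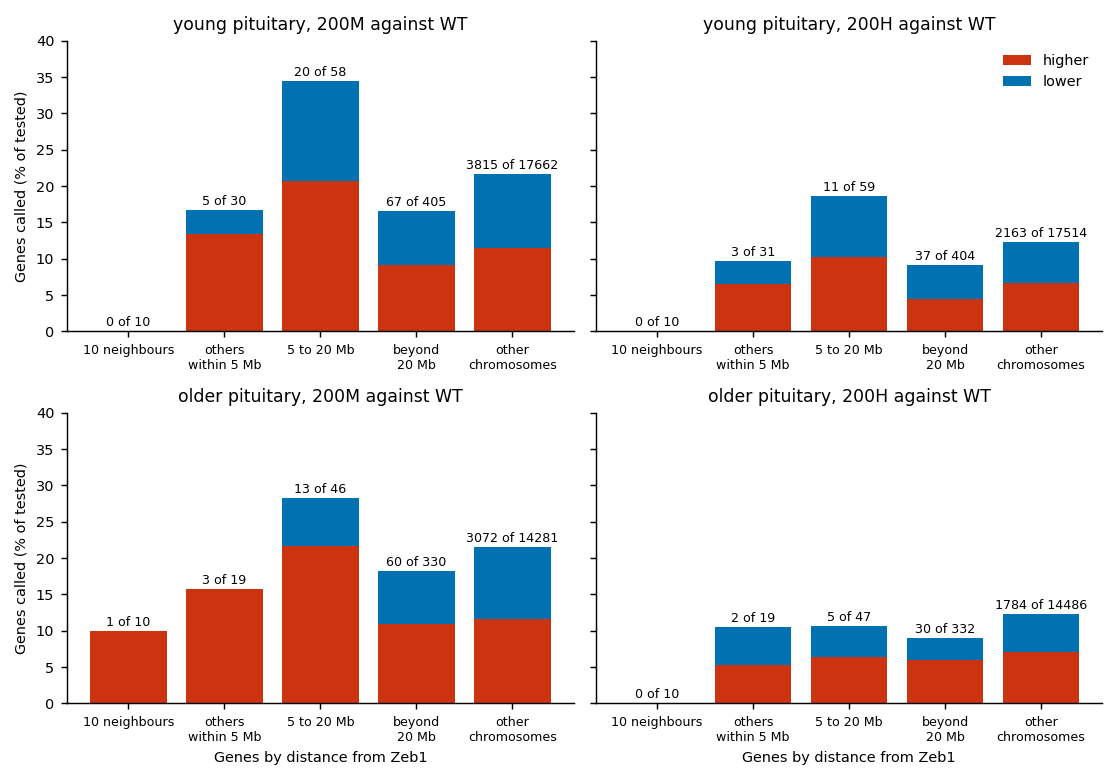
Share of tested genes called against WT in pituitary (edgeR, adjusted p under 0.05), by distance from Zeb1 along its chromosome and for all other chromosomes; bars are split into higher and lower genes and labelled with counts. The neighbours gave 0 of 10, 0 of 10, 1 of 10 and 0 of 10, and other genes within 5 Mb gave 5 of 30, 3 of 31, 3 of 19 and 2 of 19.

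The gene within 5 Mb that was called in more than 1 tissue was Colec12, which encodes a scavenger receptor and lies 3.932 Mb downstream. In young pituitary it rose on the log2 scale by 0.41 for 200M (SE 0.13, adjusted p = 0.0372, edgeR) and by 0.45 for 200H (SE 0.14, adjusted p = 0.0468). In young 200M ovary it fell by 0.56 (SE 0.13, adjusted p = 0.0448). The 2 pituitary comparisons share their WT libraries. All 3 calls were lost with the replicate block, with the length trend removed and with all 3 genotypes fitted together. In older pituitary 200M gave 0.52 (adjusted p = 0.0930). In older ovary its 200M log2 difference was 0.14 (SE 0.33), and in hypothalamus 0.08 and 0.28, none past the threshold.

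The remaining called genes of the region are named although they were chosen after their values were seen. Greb1l, 4.55 Mb downstream, rose in all 4 pituitary comparisons, by 0.41 to 0.59 on the log2 scale (adjusted p from 0.00426 to 0.0295), and gave -0.41 (adjusted p = 0.187) in older 200M hypothalamus. Its young 200H call was lost in 5 of 13 alternatives, and the other pituitary calls in at most 2. Usp14, a proteasome-associated deubiquitinase 4.218 Mb downstream, rose in 200M pituitary by 0.32 in young (adjusted p = 0.00194) and 0.49 in older mice (adjusted p = 0.0214). Its hypothalamus and ovary log2 differences in 200M lay between -0.03 and 0.04. Rab18, a small GTPase, rose by 0.39 in older 200M pituitary (adjusted p = 0.0107). The others were called in 1 comparison each. Gm2238, annotated at chr18:5588043-5591711 and so ending just upstream of Zeb1, was higher in young 200M pituitary (0.56, adjusted p = 0.0433), a call lost in 11 of 13 alternatives. Mkx (1.159 Mb downstream, -0.34, young 200M), Mpp7 (1.572 Mb downstream, -0.40, young 200H) and Fzd8 (3.437 Mb downstream, -0.64, older 200H) were lower in pituitary. These calls were lost in 7 of 13, 4 of 13 and 5 of 14 alternatives, in that order. In 200M ovary Jcad, which lies between Mtpap and Svil, was higher in young mice (0.24) and Abhd3 (4.867 Mb downstream) in older mice (0.63). The Jcad call was lost in 11 of 14 alternatives and the Abhd3 call in 5 of 14.

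Relatives of the neighbours on other chromosomes were measured beside them, as genes of similar function without the linkage. Of 163 tests of 14 relatives against WT, 5 were called. The share was 14.3% in young 200M pituitary, 7.14% in young 200H, 0% in older 200M and 7.69% in older 200H pituitary, in each case below the share over all genes given above, and 7.14% in older 200M ovary, where 1 relative was called. Atf1, which like Crem belongs to the CREB family, fell in young pituitary by 0.52 for 200M (SE 0.09, adjusted p = 0.000987) and by 0.38 for 200H (SE 0.10, adjusted p = 0.0295), and the third family member, Creb1, gave -0.01 and -0.03. Vill, a villin-like relative of Svil, rose by 1.43 (SE 0.37, adjusted p = 0.0113) in young 200M pituitary and gave 0.17 (adjusted p = 0.625) in older 200M pituitary. Gsn (gelsolin) fell by 0.57 (SE 0.13, adjusted p = 0.0109) in older 200H pituitary and gave -0.16 (adjusted p = 0.426) in older 200M pituitary. Kif5a, the neuronal counterpart of Kif5b, rose by 1.19 (SE 0.24, adjusted p = 0.0392) in older 200M ovary. The relatives of Arhgap12 tested here, Arhgap27 and Arhgap15, were not called, with log2 differences of -0.29 and -0.03 in older 200M pituitary.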

How the data were processed

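The authors deposited raw counts per gene and library in 18 tables, 1 per pair of genotypes. Reads had been aligned with STAR to mm10 and assigned with featureCounts or, in older pituitary and hypothalamus, htseq-count. The authors' fold changes and p-values in these tables were not used, nor were 3 count columns with a repeated header. Of the 69 libraries, 66 stood in more than 1 table, with 0 genes differing between tables. Among 99 pairs of libraries within groups, chi-square per degree of freedom was at least 1.89, so none was a copy. The labels call the libraries separate samples and the study calls them biological replicates.

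Counts were tested with edgeR 4.0.16 (R 4.3.3; quasi-likelihood test, TMM scaling, filterByExpr) for each pair of genotypes within a tissue and cohort across all genes, adjusted by Benjamini-Hochberg and called under 0.05. The difference of the 200M effect between tissues was an interaction term. It treated libraries of different tissues as independent, and whether they came from the same mice was not checked. SE is the log2 difference over the square root of F, and intervals use the t distribution. CPM use TMM factors within a tissue and cohort, without scaling across tables. DESeq2 1.42.0 was an alternative. Steps were tested on simulated counts. Genes planned to be named beside the neighbours were Zeb1, genes within 5 Mb called in more than 1 tissue (else in 2 comparisons, at most 10) and fixed relatives. The remaining called genes within 5 Mb were added after their values were seen. Neighbours and lists were chosen with earlier results of these data known. Young WT pituitary replicate u is a library without a usable number. Coordinates are those of GENCODE M21 for 99.07% of gene IDs.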

Additional observations from a re-analysis of the deposited data

Results flagged for a closer look

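The 200M effect on Arhgap12 in older mice differed between pituitary and hypothalamus by 0.59 on the log2 scale in the interaction test. The balance of genes of long against short exon length moved in opposite directions in the same libraries, with -0.45 to -0.08 in 200M against -0.03 to 0.18 in WT hypothalamus and 0.08 to 0.12 in 200M against -0.25 to 0.01 in WT pituitary. Its part in the result was not tested.

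Of 150 groups of 4 libraries, 10 held a library whose gap to the rest passed Dixon's critical value at the 95% level, and chance alone picks out about 1 in 20 groups. In pituitary these were Mtpap in young 200M replicate 4 (60.0 CPM, others 54.6 to 55.2), Arhgap12 in older 200H replicate 2 (59.8 CPM, others 47.7 to 49.7), Kif5b in older 200H replicate 1 (131 CPM, others 145) and Crem in older 200H replicate 4 (65.6 CPM, others 41.9 to 43.8). In hypothalamus they were Kif5b in young WT replicate 1 (236 CPM, others 222 to 224), Wac in young 200H replicate 4 (390 CPM, others 342 to 347), Crem in older WT replicate 1 (15.8 CPM, others 11.9 to 12.3) and Map3k8 in older WT replicate 2 (1.26 CPM on 14 counts, others 1.94 to 2.06). In older ovary they were Zfp438 in 200H replicate 1 (8.80 CPM, others 8.02 to 8.09) and Crem in 200H replicate 2 (22.7 CPM, others 13.7 to 13.9).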

How the results depend on the processing

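Of 321 recounts of called neighbours under other settings, 297 stayed within 1.5 times the reported count and 24 did not. Most of the 297 are counts of 0 that stayed 0. The reported count was above 0 only in older 200M pituitary against WT and in the older pituitary against hypothalamus test. There the Arhgap12 call held in 11 of 13 and in 12 of 18 alternatives, and its direction did not reverse. In older 200M pituitary against WT the count of 1 became 2 (Arhgap12 and Svil) with the replicate block and with all 3 genotypes fitted together, and 0 to 2 when single libraries were left out. In older 200H pituitary the count of 0 became 1 with no filter (Crem) and 1 with all 3 genotypes (Arhgap12), and 0 to 1 with a library left out. In young 200M pituitary it was 0 to 1 with a library left out. With no filter 1 neighbour was called between 200M and 200H in older pituitary (Crem) and 1 in older hypothalamus (Kif5b). For the 200M effect in older pituitary against hypothalamus the count of 1 became 2 (Arhgap12 and Svil) with DESeq2, RLE scaling, no filter and the replicate block, and 0 to 2 with a library left out. The cause of these moves was not tested. Within a tissue and cohort, replicate numbers were not seen to pair libraries of different genotypes. Such same-numbered libraries deviated together with r from -0.65 to 0.43, and the block moved no other count of neighbours by over 1.5 times. Pairing of same-numbered libraries across tissues was not checked. Over all genes, the block called 150 instead of 497 in young 200M ovary, 101 instead of 482 in older 200M ovary and 77 instead of 288 between 200M and 200H there. It called 1329 instead of 2243 for young pituitary against ovary, 11 instead of 3 in young 200M hypothalamus and 0 instead of 7 between 200M and 200H in young pituitary. DESeq2 called 44 instead of 7 genes between 200M and 200H in young pituitary, 125 instead of 18 in older pituitary, 619 instead of 1 in older 200M hypothalamus, 0 and 1 instead of 3 in young 200M and 200H hypothalamus, 76 instead of 1 in young 200H ovary, 1319 instead of 482 in older 200M ovary, 877 instead of 288 against 200H there and 1699 instead of 1082 for older pituitary against ovary. Depth limits Map3k8 most, with 2 to 89 counts per library.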
